A study of Mus musculus with 30 samples.

Results

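The goblet cell secretory genes described here are *Muc2*, *Tff3*, *Fcgbp*, *Zg16*, *Agr2*, *Spdef*, *Spink4*, *Retnlb* and *Atoh1*, 9 of the 46078 genes in the counts table, picked by gene symbol. All 9 were expressed highly enough to be among the 16261 genes tested. RNA was sequenced from colon epithelium scraped from wild-type C57BL/6J mice of both sexes, in 6 groups of 5 mice with 1 library per mouse. The treated mice received azoxymethane (AOM), a colon carcinogen, at 10 mg/kg and then dextran sulfate sodium (DSS), which injures the colon lining, at 2.5% in the drinking water in 3 cycles, and were killed at 9 weeks or at 15 weeks. The vehicle groups received saline injections and were killed at 9 weeks. These vehicle mice were the baseline of both time points, so the comparisons at 9 and 15 weeks share their controls, and because vehicle mice of 15 weeks were not analysed here, the effects of treatment and of the later time cannot be told apart there. All mice were labelled wild type, and the scraped tissue was the non-tumour epithelium.

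Goblet cells are the secretory cells of the intestinal lining that make and release mucus, and they are most abundant in the colon. *Atoh1*, a transcription factor held down by Notch signalling, commits a crypt progenitor to the secretory lineage, and *Spdef*, an ETS family transcription factor, promotes goblet cell maturation. *Muc2* is the gel-forming mucin that builds the colonic mucus layer, and *Agr2* is a protein disulfide isomerase of the endoplasmic reticulum needed for its assembly. *Fcgbp*, *Zg16*, *Tff3*, *Spink4* and *Retnlb* encode products that are secreted with the mucus: a large mucus protein with von Willebrand domains, a lectin that binds Gram-positive bacteria, a trefoil peptide of mucosal repair, a Kazal-type protease inhibitor and a resistin-like antimicrobial peptide.

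On GRCm38, *Muc2* (ENSMUSG00000025515) lay at chr7:141690340-141754693 on the plus strand, *Fcgbp* (ENSMUSG00000047730) at chr7:28071236-28120862 on the plus strand and *Zg16* (ENSMUSG00000049350) at chr7:127050156-127051977 on the minus strand. *Tff3* (ENSMUSG00000024029, chr17:31125306-31129646) and *Spdef* (ENSMUSG00000024215, chr17:27714352-27728951) lay on the minus strand. *Agr2* (ENSMUSG00000020581, chr12:35992907-36004087), *Spink4* (ENSMUSG00000028415, chr4:40920052-40931395), *Retnlb* (ENSMUSG00000022650, chr16:48816856-48818891) and *Atoh1* (ENSMUSG00000073043, chr6:64729146-64731233) lay on the plus strand. Counts were made on whole genes, so each value sums the exons of its gene.

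RefSeq promoter sequence of GRCm38.p6 was at hand for 5 of the 9 genes, *Muc2*, *Fcgbp*, *Agr2*, *Spdef* and *Atoh1*. The 250 bases before the start of *Muc2* (chr7:141690090-141690339, plus strand), *Spdef* (chr17:27728952-27729201, minus strand) and *Fcgbp* (chr7:28070986-28071235, plus strand) are shown because *Muc2* and *Spdef* went up and down together across libraries while *Fcgbp* tended the other way. Capitals mark matches on either strand to an E-box (CAGCTG, its own reverse complement, or CAGATG), to a CDX motif (TTTATG) and to a GATA motif (AGATAA), which are bound by basic helix-loop-helix, caudal-type homeobox and GATA factors.
Muc2: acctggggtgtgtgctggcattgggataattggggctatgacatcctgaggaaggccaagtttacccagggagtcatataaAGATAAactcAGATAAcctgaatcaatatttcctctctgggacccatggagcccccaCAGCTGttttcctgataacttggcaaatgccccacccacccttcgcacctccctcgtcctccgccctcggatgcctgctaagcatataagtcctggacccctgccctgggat
Spdef: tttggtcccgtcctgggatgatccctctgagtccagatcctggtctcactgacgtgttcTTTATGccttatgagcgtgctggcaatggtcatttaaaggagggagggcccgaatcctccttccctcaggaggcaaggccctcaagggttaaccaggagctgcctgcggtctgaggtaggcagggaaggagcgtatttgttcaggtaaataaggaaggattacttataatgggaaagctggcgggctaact
Fcgbp: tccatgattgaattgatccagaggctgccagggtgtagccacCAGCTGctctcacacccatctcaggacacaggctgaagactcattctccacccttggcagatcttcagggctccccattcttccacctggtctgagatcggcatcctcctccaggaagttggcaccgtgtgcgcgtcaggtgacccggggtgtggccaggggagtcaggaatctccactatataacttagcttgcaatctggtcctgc
The *Muc2* window held an E-box that began 112 bases before the start and, farther upstream, a pair of GATA matches. The *Spdef* window held a CDX match that began 191 bases before the start, and the *Fcgbp* window held an E-box that began 208 bases before it. *Agr2* held a CDX match 47 bases before its start, and the *Atoh1* window held none of these letters. Over 32851 mouse promoter windows of the same length, 25.5% held an E-box match, 10.8% a CDX match and 10.0% a GATA match, against 2, 2 and 1 of the 5 goblet windows. No match overlapped another.

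Counts on genes ran from 9265804 to 30806392 per library, and the shallowest was female vehicle replicate 5. The markers of the labelled tissue were present in every library: summed over 8 general epithelial genes such as *Epcam* and *Krt8*, CPM, the counts scaled to a common library total, ran from 9299 to 16476. The scrapes also held varying traces of other cells, and no marker in these lists was at 0 in all 30 libraries. The 7 smooth muscle markers summed to 5831 CPM in male vehicle replicate 1 and to at most 215 CPM in any other library. Libraries also differed in their homeobox genes, which mark position along the colon: a position score, the mean log2 CPM of 4 homeobox genes of the distal colon minus that of 6 of the proximal colon, ran from -5.72 to 4.08. Results that rest on these libraries are given with and without them.

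The 9 genes together took 0.653% to 2.35% of all counts in a library, with a median of 1.77%. On the TPM scale, which also divides by transcript length and so allows genes to be compared, *Muc2* had the highest median over the 10 vehicle libraries at 1768 TPM, followed by *Zg16* at 1248, *Agr2* at 682, *Tff3* at 558, *Spink4* at 408 and *Fcgbp* at 201 TPM. *Retnlb*, at 42.3 TPM, and the transcription factors *Spdef*, at 19.5 TPM, and *Atoh1*, at 14.7 TPM, were the lowest. *Muc2* made up 12.8% to 49.9% of the summed TPM of the 9 genes, so its lead over the secreted partners was not constant. At 9 weeks the median of *Zg16*, 3057 TPM, stood above that of *Muc2*, 2363 TPM. Apart from a limma test on log2(TPM + 1), given as an alternative, TPM is compared only within a library here. This is because a single short mitochondrial gene, *mt-Nd4l*, took 39.2% to 58.1% of all TPM. The median of all genes on the TPM scale also differed between groups, and the limma test was not rescaled for it.

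**Figure D1:**
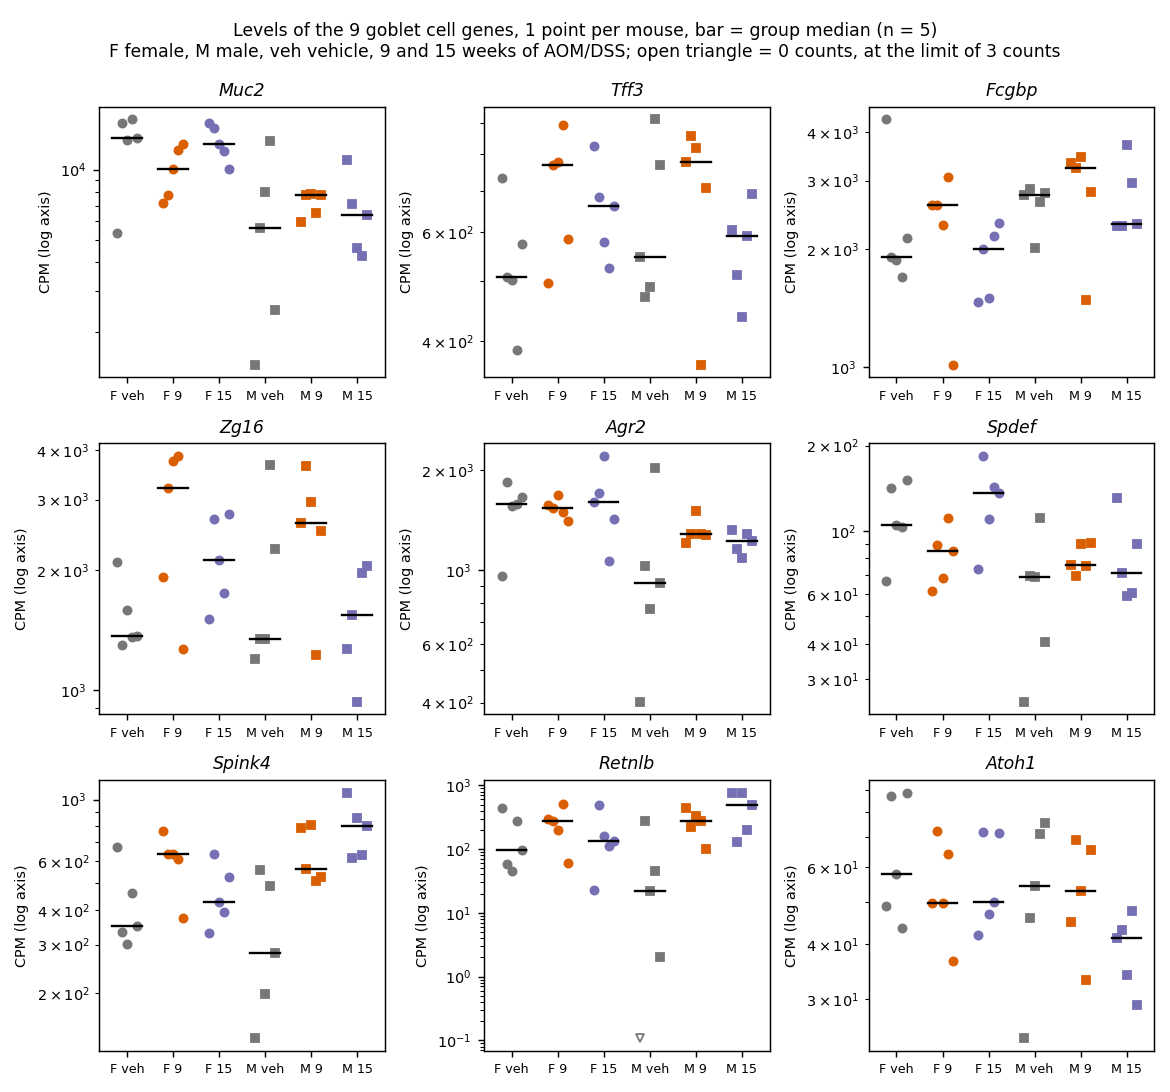
CPM on a log axis for each of the 9 genes, 1 point per mouse in the 6 groups of 5, with the group median as a bar, circles for females and squares for males. *Spink4* stands higher after AOM/DSS in males, from 617 to 1059 CPM at 15 weeks against 138 to 559 CPM in male vehicle mice. *Retnlb* spans from 0 counts to 770.3 CPM. Its male medians also stand higher, at 271 CPM at 9 weeks and 492 CPM at 15 weeks against 22.1 CPM in vehicle mice.

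The main question was whether AOM/DSS changed these genes, which was asked in each sex and with the sexes averaged. Of the 9 genes, *Spink4* was the only gene that changed in the edgeR quasi-likelihood test (Benjamini-Hochberg adjusted p under 0.05, log2 fold change beyond 0.4 and mean FPKM of at least 1). With the sexes averaged it rose at both times. Across all genes tested, 8.51% passed at 9 weeks and 7.79% at 15 weeks, against 1 of 9 goblet genes at each time, so the share of goblet genes that changed was close to that of any genes. The median log2 fold change of the 9 genes was 0.16 at 9 weeks and 0.18 at 15 weeks, beside -0.02 and -0.03 over all genes tested.

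In female vehicle mice *Spink4* stood at 675, 334, 303, 461 and 349.7 CPM, and in male vehicle mice at 138, 559, 199, 486 and 279.8 CPM. At 9 weeks of AOM/DSS the females had 773, 638, 636, 609 and 373 CPM and the males 792, 560.0, 809, 507 and 524 CPM. At 15 weeks the females had 331, 634, 427, 393 and 527 CPM and the males 1059, 617, 854, 629 and 800.3 CPM. Every male at 15 weeks was above every male vehicle mouse, while the groups overlapped at 9 weeks in both sexes and at 15 weeks in females.

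With the sexes averaged, the log2 fold change of *Spink4* was 0.70 at 9 weeks (SE 0.21, adjusted p = 0.0223) and 0.80 at 15 weeks (SE 0.21, adjusted p = 0.0133). It was called in all 20 fits that left out 1 library at each time, with log2 fold changes of 0.60 to 0.85 and 0.70 to 0.95, the lowest of both without male vehicle replicate 1. Under the 10 other settings tried it was called in 9 at each time. These settings include the adjusted p alone, without the fold change and FPKM minimums, under which no call could be lost. At 9 weeks it was lost with a mesenchymal marker score as a covariate (0.63, adjusted p = 0.0596), and at 15 weeks in a limma test on log2(TPM + 1) (0.57, adjusted p = 0.189). In males the log2 fold change was 0.95 at 9 weeks (SE 0.30, adjusted p = 0.0430) and 1.40 at 15 weeks (SE 0.30, adjusted p = 0.00472), where 7.31% and 8.92% of all genes passed. The male call at 15 weeks held in all 10 fits without 1 library, but that at 9 weeks held in 3 of 10 and was lost without male vehicle replicate 1, 3 or 5 or male 9-week replicate 1, 2, 3 or 4, with an adjusted p of up to 0.119. Of the 10 other settings, the male call held in 6 at 9 weeks and in 8 at 15 weeks. The settings that lost it at 9 weeks were no filter on low counts, a block for replicate number (adjusted p = 0.0596), only the compared groups in the fit (adjusted p = 0.109) and the joint removal of male vehicle replicate 1 and female 9-week replicate 5 (adjusted p = 0.104). At 15 weeks they were only the compared groups in the fit (1.41, adjusted p = 0.0754) and limma on log2(TPM + 1) (1.06, adjusted p = 0.0690). In limma at 15 weeks the median log2 fold change of all genes was itself -0.18 with the sexes averaged and -0.31 in males.

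In females *Spink4* did not pass, with a log2 fold change of 0.46 at 9 weeks (95% interval -0.16 to 1.07, adjusted p = 0.479) and 0.20 at 15 weeks (-0.42 to 0.81, adjusted p = 0.825). None of the 9 genes passed in females, where 2.9% of all genes did at 9 weeks and 0.0984% at 15 weeks. In edgeR, 1 of the 9, *Zg16*, had an unadjusted p under 0.05 in females at 9 weeks and none at 15 weeks, and DESeq2 called none at either time. Whether the sexes differed in the response was tested by an interaction. The male change of *Spink4* exceeded the female one by 0.49 on the log2 scale at 9 weeks (adjusted p = 0.821) and by 1.20 at 15 weeks (95% interval 0.34 to 2.07, unadjusted p = 0.00834, adjusted p = 0.488), so neither difference passed. No gene of the 9 passed for either interaction, and nor did any gene at all (0% at 9 weeks and 0% at 15 weeks). In edgeR 0 and 1 of the 9 genes, the latter *Spink4*, had an unadjusted p under 0.05 for these interactions, and DESeq2 called none.

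**Figure D2:**
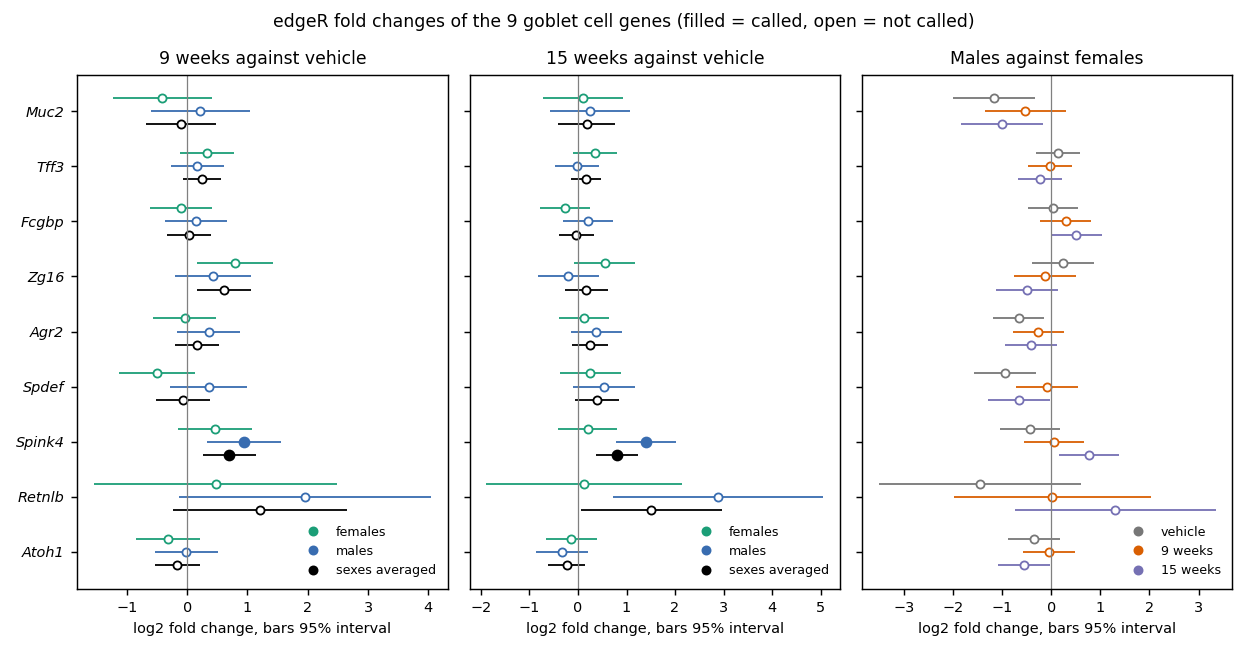
Log2 fold changes of the 9 genes from edgeR with their 95% intervals, for 9 weeks against vehicle, 15 weeks against vehicle and males against females, with filled points for genes that passed the test. *Spink4* carries the 4 filled points, at 0.70 and 0.80 with the sexes averaged and at 0.95 and 1.40 in males, and the intervals of *Retnlb* are the widest.

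*Retnlb* varied most among the 9 genes. Female vehicle mice had 448, 58.5, 44.9, 276 and 98.1 CPM, and male vehicle mice 0, 276, 22.1, 44.8 and 2.05 CPM. The value of 0 in male vehicle replicate 1 allows up to 0.107 CPM, the level that 3 counts would give. This library is also the one rich in smooth muscle markers. At 9 weeks females had 294, 280.3, 196, 511 and 59.9 CPM and males 446, 220.5, 327, 271 and 102 CPM. At 15 weeks females had 22.5, 494, 159.5, 113 and 132.5 CPM and males 744, 131, 770.3, 198 and 492 CPM. In males 4 of the 5 vehicle mice were below all treated mice, and the fifth, replicate 2, was among them. The log2 fold change in males at 15 weeks was 2.89 (SE 1.05, adjusted p = 0.0627), and with the sexes averaged it was 1.21 at 9 weeks (adjusted p = 0.262) and 1.51 at 15 weeks (adjusted p = 0.133). None of these passed in edgeR, and the outcome depended on both a library and the method. Without male vehicle replicate 2 *Retnlb* passed with the sexes averaged at 9 weeks (2.23, adjusted p = 0.0225) and 15 weeks (2.53, adjusted p = 0.0140). It also passed then in males at 9 weeks (3.99, adjusted p = 0.0192) and 15 weeks (4.93, adjusted p = 0.00620). With all libraries kept, DESeq2 called it in males at 15 weeks (2.90, adjusted p = 0.0349), as did edgeR with a block for replicate number. Limma on log2(TPM + 1) called it in males at 9 weeks (4.27, adjusted p = 0.00788) and 15 weeks (4.22, adjusted p = 0.0199). With the sexes averaged, limma called it at 9 weeks (2.69, adjusted p = 0.00793) but not at 15 weeks (2.07, adjusted p = 0.107). In limma the median log2 fold change of all genes was 0.16 in males at 9 weeks and -0.31 at 15 weeks. With the sexes averaged it was 0.20 and -0.18.

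*Zg16* had the next largest change at 9 weeks. Its values were 2090, 1296, 1590.0, 1357 and 1363 CPM in female vehicle mice and 1193, 1342, 1338, 3660.0 and 2253 CPM in male vehicle mice. At 9 weeks females had 1914, 3203, 3742, 3864 and 1265 CPM and males 2623, 3647, 2956, 1221 and 2506 CPM. At 15 weeks the females ranged from 1505 to 2757 CPM and the males from 935 to 2041 CPM. Most of the libraries at 9 weeks were high, but 3 of the 10 were below the highest vehicle female, and male vehicle replicate 4 was as high as the treated mice. The log2 fold change at 9 weeks with the sexes averaged was 0.61 (SE 0.22, adjusted p = 0.0545), just outside the threshold, and DESeq2 called it (0.62, adjusted p = 0.0251). It also passed in 5 of the 20 fits that left out 1 library, those without male vehicle replicate 4 (0.79, adjusted p = 0.00785), female vehicle replicate 1 (0.67, adjusted p = 0.0416), female 9-week replicate 1 (0.67, adjusted p = 0.0437), female 9-week replicate 5 (0.69, adjusted p = 0.0220) or male 9-week replicate 4 (0.70, adjusted p = 0.0221). At 15 weeks its log2 fold change was 0.17 (adjusted p = 0.600).

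For the other 6 genes the fold change at 9 weeks, sexes averaged, lay between -0.16 for *Atoh1* and 0.25 for *Tff3*, and at 15 weeks between -0.24 for *Atoh1* and 0.39 for *Spdef*. *Muc2* differed by -0.10 at 9 weeks (95% interval -0.68 to 0.48) and 0.18 at 15 weeks (-0.41 to 0.76), so its intervals reached from -0.68 to 0.76. *Fcgbp* was close to 0 at both times, at 0.02 (-0.34 to 0.39) and -0.03 (-0.40 to 0.33). *Tff3*, at 0.25 (-0.07 to 0.56) and 0.16 (-0.15 to 0.48), and *Agr2*, at 0.16 (-0.21 to 0.53) and 0.25 (-0.12 to 0.62), did not pass either. Across the 30 libraries *Tff3* ranged from 367 to 913 CPM, *Fcgbp* from 1013 to 4319 CPM, *Agr2* from 403 to 2215 CPM and *Atoh1* from 24.4 to 88.6 CPM, and for each of them all 3 female groups overlapped each other, as did the 3 male groups. *Atoh1* was lowest by mean in males at 15 weeks, at 39.0 ± 7.45 CPM (SD, n = 5), against 54.2 ± 20.6 CPM in vehicle males. Without male vehicle replicate 4, the vehicle male with the highest *Agr2* at 2037 CPM, *Agr2* passed at 15 weeks (0.45, adjusted p = 0.0312), and in males at 9 weeks (0.76, adjusted p = 0.0237) and at 15 weeks (0.78, adjusted p = 0.0152). In this bulk tissue, fewer goblet cells and less RNA per goblet cell cannot be told apart.

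The 15-week and 9-week mice were compared directly as well. None of the 9 genes passed in edgeR, where 2.42% of all genes did. *Spdef*, with a log2 fold change of 0.47 (SE 0.22, adjusted p = 0.194), was the 1 gene with an unadjusted p under 0.05, and DESeq2 called none. *Zg16* was lower at 15 weeks by a log2 fold change of -0.44 (adjusted p = 0.219), which did not pass.

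For *Muc2* the larger differences were between males and females, though none passed the test. Female vehicle mice had 5362, 15812, 13382, 16527 and 13641 CPM, and male vehicle mice 1449, 5616, 7992, 13213 and 2496 CPM. At 15 weeks females had 15918, 15058, 12846, 12032 and 10101 CPM and males 10963, 7127, 4586, 4256 and 6367 CPM, so that only the highest male exceeded the lowest female. At 9 weeks the ranges were 7177 to 12869 CPM in females and 5944 to 7864 CPM in males and overlapped. By group mean the order was females at 15 weeks (13191 ± 2342 CPM, SD, n = 5), vehicle females (12945 ± 4451), females at 9 weeks (9998 ± 2526), males at 9 weeks (7179 ± 894), males at 15 weeks (6660.0 ± 2688) and vehicle males (6153 ± 4717). Each pair of neighbours in this order differed by less than the larger of their SDs, except females at 9 weeks against males at 9 weeks.

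*Spdef* and *Agr2* were ordered in the same way between the sexes. In vehicle mice *Spdef* was 66.8, 141.8, 105, 103 and 151 CPM in females and 25.0, 69.3, 68.6, 111 and 40.7 CPM in males. The log2 difference of males from females in vehicle mice was -1.16 for *Muc2* (SE 0.41, adjusted p = 0.121), -0.94 for *Spdef* (SE 0.31, adjusted p = 0.105) and -0.67 for *Agr2* (SE 0.26, adjusted p = 0.156). These 3 genes had an unadjusted p under 0.05 and none of the 9 passed in edgeR, where 0.178% of all genes did, while DESeq2 called *Spdef* (-0.94, adjusted p = 0.0498). Leaving out either of 2 libraries changed this: without female vehicle replicate 1, *Muc2* (-1.37, adjusted p = 0.0301), *Spdef* (-1.09, adjusted p = 0.0277) and *Agr2* (-0.80, adjusted p = 0.0454) passed, and without male vehicle replicate 4 they did so too, at -1.64, -1.24 and -1.06 (adjusted p = 0.0295, 0.0328 and 0.0137). Without male vehicle replicate 1, the library rich in smooth muscle markers, the differences were smaller and did not pass, at -0.91 for *Muc2* (adjusted p = 0.446), -0.73 for *Spdef* (adjusted p = 0.442) and -0.46 for *Agr2* (adjusted p = 0.486).

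At 15 weeks 4 of the 9 genes had an unadjusted p under 0.05 between the sexes. *Muc2* (-1.01, adjusted p = 0.290), *Spdef* (-0.66, adjusted p = 0.375) and *Atoh1* (-0.55, adjusted p = 0.377) were lower in males and *Spink4* (0.77, adjusted p = 0.274) was higher, but none passed in edgeR or DESeq2, and 0.184% of all genes did in edgeR. At 9 weeks none of the 9 passed in edgeR or DESeq2 or had an unadjusted p under 0.05, and 0.0492% of all genes passed in edgeR.

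Values of the position score stood beside the sex difference of *Muc2*, *Spdef* and *Agr2*. In females the score ranged from -4.56 to 2.88 in vehicle mice (median -1.72) and from -5.72 to -2.44 at 15 weeks (median -4.66), against -1.04 to 4.08 (median 0.18) and -4.04 to 2.05 (median -1.26) in males, where lower scores mean more of the proximal homeobox genes. Across the 30 libraries the Spearman correlation with the score was -0.76 for *Muc2*, -0.82 for *Spdef* and -0.51 for *Agr2*, and it was -0.76, -0.72 and -0.42 once each group's mean was removed. *Fcgbp* went the other way, at 0.60 and 0.43. *Spink4*, at 0.11 and 0.12, and *Zg16*, at 0.06 and 0.15, hardly followed it. These correlations describe libraries that share their groups and depth. With the score as a covariate, a setting chosen after seeing the data, the male difference in vehicle mice was -0.66 for *Muc2* (adjusted p = 0.554), -0.53 for *Spdef* (adjusted p = 0.551) and -0.45 for *Agr2* (adjusted p = 0.628). At 15 weeks it was -0.38 for *Muc2* (adjusted p = 0.662), -0.20 for *Spdef* (adjusted p = 0.783) and -0.18 for *Agr2* (adjusted p = 0.822). The part of colon position in the sex difference was not tested, since the place sampled is not recorded and the score is itself gene expression. *Spink4* was hardly moved by it, at 0.70 (adjusted p = 0.0184) and 0.81 (adjusted p = 0.0455) with the sexes averaged at 9 and 15 weeks.

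**Figure D3:**
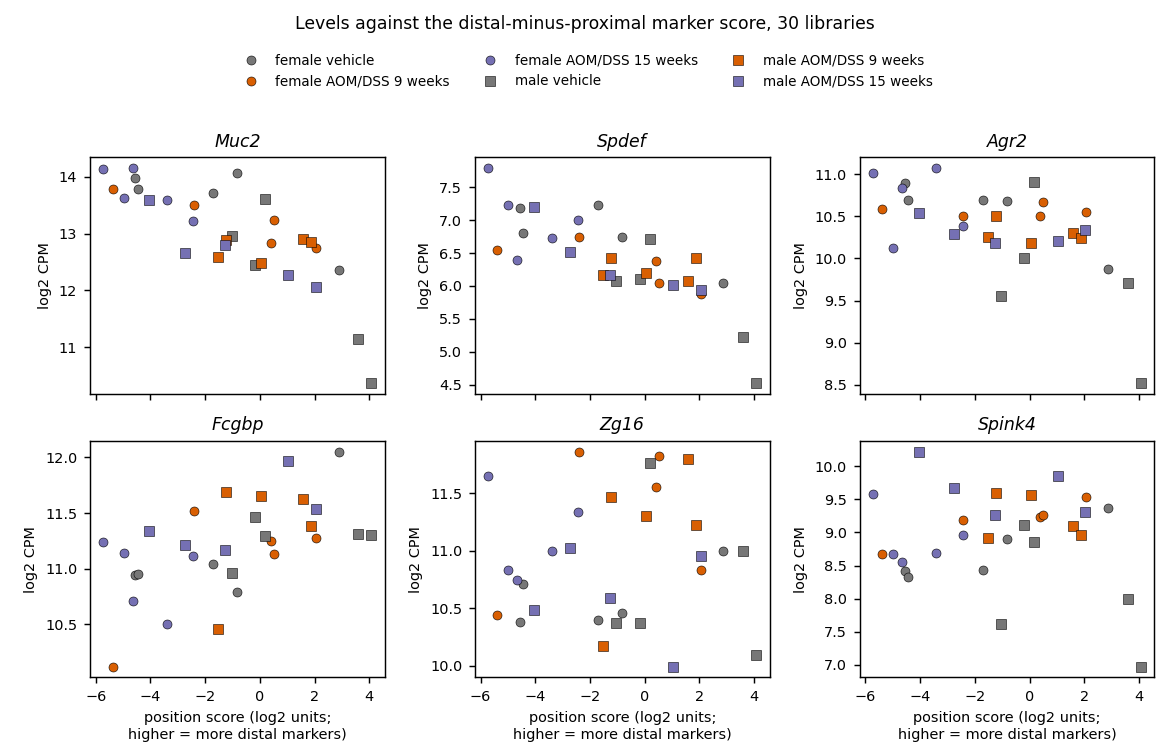
Log2 CPM of 6 of the genes against the position score, in log2 units, for 30 libraries coloured by treatment, with circles for females and squares for males. *Muc2* and *Spdef* fall from the low scores at the left to the high scores at the right, *Fcgbp* tends upwards, and *Spink4* and *Zg16* show no such slope.

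The 9 genes fell into sets that varied together from library to library. *Spink4* and *Retnlb* had a Spearman correlation of 0.89 over the 30 libraries and 0.77 once each group's mean was removed. *Tff3* and *Zg16* stood at 0.80 and 0.73, *Muc2* and *Spdef* at 0.80 and 0.72, and *Muc2* and *Agr2* at 0.77 and 0.59. *Fcgbp* ran with *Spink4* (0.58 and 0.59) and against *Muc2* (-0.61 and -0.37). *Atoh1*, which acts at the start of goblet cell fate, correlated most with *Zg16*, at 0.44 and 0.50. Since all 9 values of a library share its depth, tissue and scaling, these are descriptions of 30 libraries.

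**Figure D4:**
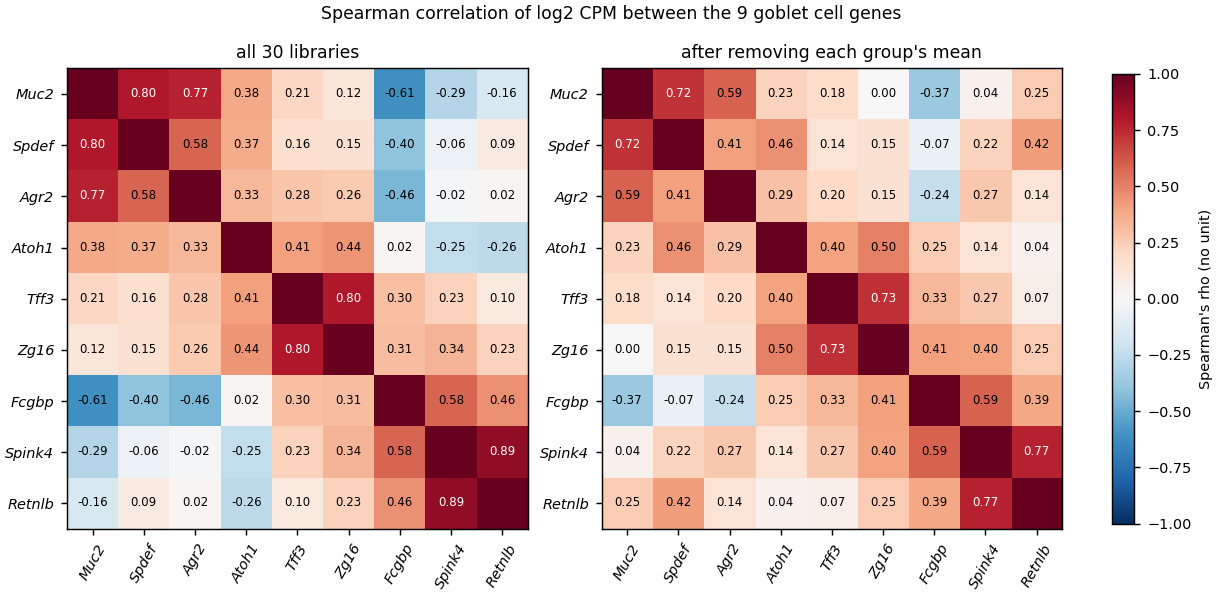
Spearman correlations of log2 CPM between the 9 genes over 30 libraries, left as measured and right after each group's mean was removed, coloured from -1 to 1. *Muc2*, *Spdef* and *Agr2* form a block, and the pairs *Tff3* with *Zg16* (0.80) and *Spink4* with *Retnlb* (0.89) stand out.

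Within a library, the ratio of *Spink4* to *Muc2* in TPM, which is free of the library's scale, had a mean log2 value of -0.50 ± 0.41 (SD, n = 5) in males at 15 weeks and -0.96 ± 0.45 in males at 9 weeks, against -1.49 ± 0.95 in male vehicle mice. In females it was -2.34 ± 1.08 in vehicle mice, -1.49 ± 0.73 at 9 weeks and -2.29 ± 0.48 at 15 weeks. Males at 15 weeks, from -0.96 to 0.06, did not overlap females at 15 weeks, from -2.98 to -1.73. This was not particular to *Spink4*. The ratio of *Fcgbp* to *Muc2* did not overlap at 15 weeks either, from -2.70 to -1.79 in males and from -4.29 to -3.46 in females. Neither *Spink4* nor *Muc2* alone passed between the sexes at 15 weeks in edgeR (adjusted p = 0.274 and 0.290). *Muc2*, which both ratios share, also followed the position score (Spearman correlation -0.76), and the part of position in these ratios was not tested. The ratio of *Zg16* to *Muc2* was 0.49 ± 1.05 in vehicle males, 0.35 ± 0.51 in males at 9 weeks and -0.21 ± 0.73 in males at 15 weeks. In females it was -1.10 ± 0.96 in vehicle mice, -0.02 ± 0.83 at 9 weeks and -0.71 ± 0.55 at 15 weeks, and the groups overlapped in both sexes.

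Markers of immune and plasma cells moved in the same libraries. At 9 weeks with the sexes averaged, 5 of 9 leukocyte markers, 3 of 6 neutrophil markers and 3 of 6 plasma cell markers rose, and none of these lists had a gene that fell. Among all genes tested, 5.65% rose and 2.87% fell at 9 weeks, and 3.54% rose and 4.25% fell at 15 weeks. Summed plasma cell markers ran from 384 to 952 CPM in vehicle females and from 322 to 1241 CPM in vehicle males, and at 9 weeks from 623 to 2252 and from 958 to 4404 CPM. At 15 weeks they ran from 385 to 1801 CPM in females and from 465 to 1435 CPM in males, and 0 of the 6 passed. Summed leukocyte markers ran from 22.1 to 67.0 CPM over the vehicle mice, from 40.6 to 156 CPM at 9 weeks and from 25.7 to 87.6 CPM at 15 weeks, where 0 of the 9 passed. Summed neutrophil markers ran from 12.5 to 196 CPM in vehicle mice, from 9.91 to 212 CPM at 9 weeks and from 6.81 to 140 CPM at 15 weeks, where 2 of the 6 rose. These sums overlapped, although the median log2 fold change over the neutrophil list was 5.48 at 9 weeks. The Spearman correlation with the plasma cell score over 30 libraries was 0.71 for *Zg16* and 0.53 for *Spink4*, and 0.60 and 0.71 once each group's mean was removed. Mesenchymal markers summed to 17.3 to 1479 CPM, and 3 of 8 fell at 15 weeks, as did 7 of 7 smooth muscle markers. Without male vehicle replicate 1 these counts were 1 of 8 and 0 of 7. With the mesenchymal score as a covariate, the *Spink4* rise at 15 weeks still passed (0.87, adjusted p = 0.0165). The part of the immune cells in these results was not tested. Of the other lists, 0 of 8 general epithelial, 0 of 7 enteroendocrine and 0 of 6 tuft cell markers changed at 9 weeks and 1, 0 and 0 at 15 weeks, while 1 of 11 absorptive colonocyte markers rose and 1 fell at each time.

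Paneth cells, the antimicrobial secretory cells of the small intestine, are normally scarce in the mouse colon. Of 9 Paneth markers listed, 8 were in the table and 4 were tested, of which 3 rose at 9 weeks and 4 at 15 weeks. Over all genes tested, 5.65% rose at 9 weeks and 3.54% at 15 weeks. The 8 summed to 1.62 to 8.05 CPM in vehicle mice, 7.14 to 211 CPM at 9 weeks and 2.52 to 413 CPM at 15 weeks. The lowest treated mice overlapped the vehicle mice, and the part of these cells in the *Spink4* result was not tested.

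Around the 9 genes, 4 lists of goblet cell function were examined. Among 26 tested genes of secreted and granule proteins, 2 rose and 3 fell at 9 weeks, where 5.65% of all genes rose and 2.87% fell. *Muc4* (1.19, adjusted p = 0.000145) and *Muc13* (0.58, adjusted p = 8.14e-07), both membrane mucins, rose, and *Tff2* (-2.85), the kallikrein *Klk1* (-0.61) and the actin-severing protein gene *Scin* (-0.54) fell. *Muc13* went from 2399 ± 286 to 3394 ± 246 CPM in females and from 2361 ± 86.1 to 3835 ± 394 CPM in males. At 15 weeks *Muc4* (0.65) and *Galnt12* (0.48), an enzyme that starts O-glycan chains, rose and none fell, and 3.54% of all genes rose and 4.25% fell. *Tff2*, a trefoil peptide, stood at or below 2.26 CPM in every vehicle and 9-week mouse. Between 9 and 15 weeks, where 0.424% of all genes rose and 2% fell, *Tff2* was the 1 gene called in this list (3.45, adjusted p = 0.0392), and its call held in 9 of 20 fits that left out 1 library. The largest drop was without male 15-week replicate 5, which stood at 7.32 CPM, to 0.87 (adjusted p = 0.626). Its counts were at or near 0 in most males, so its fitted fold changes are rough, and its call at 9 weeks held in 7 of 20 fits that left out 1 library, and that of *Muc4* at 15 weeks was lost without female vehicle replicate 1 (0.61, adjusted p = 0.0504).

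The next list was drawn up for mucin O-glycosylation, but its members *Fut8* and *St6gal1* act mainly on N-glycans. Among its 25 tested enzymes and transporters, *Galnt3* (0.51) and *Gmds* (0.43) rose and *Slc26a2* (-0.74), a sulfate transporter, fell at 9 weeks. Of all genes tested, 5.65% rose and 2.87% fell then. At 15 weeks none rose, and *Slc26a2* (-0.66), the branching enzyme gene *Gcnt1* (-0.60) and the sialyltransferase gene *St6gal1* (-0.46) fell. Of all genes tested, 3.54% rose and 4.25% fell at that time. The call of *Gcnt1* held in 16 of 20 fits that left out 1 library and was lost without male vehicle replicate 1 (-0.39, adjusted p = 0.0817), male 15-week replicate 1 or 5 or female 15-week replicate 2 (adjusted p = 0.0537, 0.0601 and 0.0562). That of *Gmds* at 9 weeks held in 18 of 20, its fold change being under 0.4 without female vehicle replicate 1 or male vehicle replicate 1 (0.39 in both), and that of *St6gal1* held in 10 of 20. The medians over the list were 0.02 and 0.03, near those of all genes. Between 9 and 15 weeks, where 0.424% of all genes rose and 2% fell, *Fut8* (-0.50, adjusted p = 0.0491), a fucosyltransferase gene, was the 1 called gene. Its call held in 4 of 20 fits that left out 1 library, with an adjusted p of up to 0.108.

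Among 30 tested genes of the secretory pathway and of folding in the endoplasmic reticulum, 5 rose at 9 weeks and none fell. Over all genes tested, 5.65% rose and 2.87% fell. The median of the list was 0.19. In the same comparison 3 of 6 plasma cell markers rose, and the part of plasma cells in this list was not tested. *Ero1l* (0.62), an oxidase that drives disulfide bonds, *Sec61b* (0.55), a subunit of the translocon, and *Manf* (0.54), which is secreted under folding stress, had the largest changes. At 15 weeks *Sdf2l1* (0.50), *Manf* (0.50) and *Sec61b* (0.49) rose and *Creb3l2* (-0.56) fell, where 3.54% of all genes rose and 4.25% fell. The call of *Sec61b* at 15 weeks held in 19 of 20 fits that left out 1 library. Its fold change was under 0.4 without female 15-week replicate 2 (0.397). *Manf* went from 66.4 ± 9.29 CPM in vehicle females to 91.0 ± 20.5 CPM at 9 weeks and 86.6 ± 14.5 CPM at 15 weeks, and from 64.9 ± 26.4 CPM to 103 ± 16.6 and 86.3 ± 11.1 CPM in males. None of the 30 was called between 9 and 15 weeks.

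Among 29 tested regulators of secretory fate and of Notch signalling, *Il4ra* rose at 9 weeks (1.59, adjusted p = 1.33e-07) and at 15 weeks (1.05, adjusted p = 0.000167). It encodes a subunit of the receptors for the type 2 cytokines IL-4 and IL-13. *Il4ra* stood at 38.2 ± 7.61 CPM in vehicle females and 25.9 ± 6.91 CPM in vehicle males, at 90.2 ± 33.0 and 103 ± 17.0 CPM at 9 weeks, and at 59.8 ± 11.6 and 62.8 ± 17.8 CPM at 15 weeks. In the same comparisons 5 of 9 leukocyte markers rose at 9 weeks and 0 of 9 passed at 15 weeks. The part of immune cells in the *Il4ra* result was not tested. *Il13ra1* (0.63) rose at 9 weeks and *Ptger4* (0.47) at 15 weeks. The stem cell receptor *Lgr5* fell at both times, at -1.21 and -1.52. *Ascl2* (-0.85), a stem cell transcription factor, fell at 9 weeks and *Dll1* (-0.70), a Notch ligand of secretory progenitors, at 15 weeks. In total 2 of the 29 rose and 2 fell at each time. Of all genes tested, 5.65% rose and 2.87% fell at 9 weeks, and 3.54% rose and 4.25% fell at 15 weeks. Between 9 and 15 weeks, where 0.424% of all genes rose and 2% fell, *Ascl2* (0.65) rose and *Il4ra* (-0.53) fell. Each of these calls held in 4 of 20 fits that left out 1 library.

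Over 30 libraries, the 10 genes outside the set whose log2 CPM followed the mean standardized level of the 9 most closely were *Rbp4*, *Rasd1*, *Gpr20*, *Creld2*, *Sar1a*, *Ffar4*, *Ramp1*, *Xbp1*, *Gadd45a* and *Tmed9*, out of 11358 genes with a mean of at least 1 TPM. Their Spearman correlations with that mean ran from 0.669 for *Tmed9* to 0.802 for *Rbp4*. *Xbp1*, a transcription factor of the unfolded protein response, stood at 0.677. The 9 genes themselves correlated with their own mean by 0.30 for *Fcgbp* to 0.76 for *Tff3* and *Zg16*, so that no single pattern described all of them.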

How the data were processed

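The authors made stranded poly(A)-selected libraries, aligned the paired reads to GRCm38 with STAR and deposited raw counts per gene from featureCounts, without normalization. The FPKM and TPM values, as deposited by the authors, are StringTie estimates per library. Duplicate reads are not stated to have been removed, so counts are not independent molecules and limits cover counting error only. Repeated lines of a gene were summed (11 to 20 per file), and 6 genes were missing from at least 1 StringTie file.

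Counts were tested with edgeR 4.0.16 in R 4.3.3: filterByExpr, TMM scaling and a quasi-likelihood fit of 6 group coefficients to all 30 libraries, in 12 comparisons, with Benjamini-Hochberg adjustment over 16261 genes. A gene passed at adjusted p under 0.05, log2 fold change beyond 0.4 and mean FPKM of at least 1 in 1 compared group. CPM divide counts by the library total, and log2 CPM use TMM and a prior count of 2. Alternatives used DESeq2 1.42.0, limma 3.58.1 on log2(TPM + 1), DESeq2 size factors in edgeR, no filter and the replicate number as a block. Others used marker scores as covariates, only the compared groups, the adjusted p alone, and each library left out in turn. Named genes were the 9 goblet genes, in each of the other lists the called genes with the largest change (up to 3 per direction), and the 10 best correlated genes. Groups come from the labels, and no library was left out. The 60 pairs of libraries within groups had a chi-square per degree of freedom of at least 13.7, so none was a copy. The genes, lists and comparisons were chosen with earlier results of these data known. Each library is 1 mouse per the study's methods.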

Additional observations from a re-analysis of the deposited data

Results flagged for a closer look

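Within each group of 5, the gap between an extreme library and its nearest neighbour was set against the range of the group, and 5 of the 54 gene-by-group sets exceeded the 95% critical value of Dixon's test. Chance flags about 1 in 20 such sets. *Muc2* was low in female vehicle replicate 1, at 5362 CPM against 13382 CPM for the next library (gap over range 0.718), and *Fcgbp* was high in the same library, at 4319 CPM against 2135 CPM (0.835). That library had the highest position score of the female vehicle mice, 2.88, with *Hoxb13* at 424 CPM, and its part in these values was not tested. *Fcgbp* was low in male vehicle replicate 3, at 2014 CPM against 2644 CPM (0.753). *Agr2* was high in male 9-week replicate 3, at 1507 CPM against 1288 CPM (0.734). *Retnlb* was high in male vehicle replicate 2, at 276 CPM against 44.8 CPM (0.838), the library without which *Retnlb* passed the test.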

How the results depend on the processing

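The number of the 9 genes called was 1 at 9 weeks, 1 at 15 weeks and 0 for 15 against 9 weeks with the sexes averaged, and 1 in males at each time. At 9 weeks with the sexes averaged it was 2 under DESeq2, limma on log2(TPM + 1), the position covariate and without both male vehicle replicate 1 and female 9-week replicate 5, and 0 under the mesenchymal covariate. At 15 weeks it was 0 under limma on TPM. In males at 9 weeks it was 0 without a filter on low counts, with only the compared groups and without both libraries, and 2 under limma on TPM. In males at 15 weeks it was 2 under DESeq2 and 0 with only the compared groups, and the 1 gene called under limma on TPM was *Retnlb* (4.22, adjusted p = 0.0199), with *Spink4* at 1.06 (adjusted p = 0.0690). In females at 9 weeks it was 1 without both libraries, and between vehicle males and females 1 under DESeq2. The position covariate and the joint removal were chosen after seeing the data. Without 1 library the counts ranged from 1 to 2 at both times with the sexes averaged, from 0 to 2 in males at 9 weeks, from 1 to 2 in males at 15 weeks and from 0 to 3 between vehicle males and females, with 0 in the other comparisons. The cause of these shifts was not tested.

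For 15 against 9 weeks limma on TPM called 4 genes lower, *Agr2* (-0.57), *Tff3* (-0.70), *Atoh1* (-0.65) and *Zg16* (-1.02), and turned *Agr2* (-0.569), *Spdef* (-0.229) and *Spink4* (-0.568) from higher to lower. On that scale the median of all genes was -0.43, against which they differed by -0.14 (*Agr2*), -0.27 (*Tff3*), -0.22 (*Atoh1*), -0.60 (*Zg16*), 0.20 (*Spdef*) and -0.14 (*Spink4*). Of the fold changes of single genes, 72 of 1530 changed sign without 1 library and 57 of 1080 under the other settings, all but these 3 with an unadjusted p of at least 0.05 before and after.

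With the replicate number as a block, 0 genes were called in males at 9 weeks and 2 in males at 15 weeks (*Spink4*, and *Retnlb* at 3.96, adjusted p = 0.0392). It changed the call of no other comparison. Same-numbered libraries of different groups deviated together in 12 of 75 pairs (correlation over 0.1), with correlations from -0.581 to 0.467 and a median of -0.026. The highest was for replicate 1 of vehicle and 9-week females. No general pairing by number was seen, but these correlations cannot exclude that some numbers pair mice.

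Replacing TPM by CPM, or adding 1 to each TPM, moved no difference between times in a mean log2 ratio to *Muc2* by more than 1 SD between mice. Depth did not limit the 9 genes, whose counts were above 0 in all libraries except *Retnlb* in 1.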
